A study of Mus musculus with 4 samples.

Results

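The 10 genes described here are those of lipid droplet coats and of fatty acid uptake, taken by symbol from the count tables of all 4 libraries: the 5 perilipins (Plin1, Plin2, Plin3, Plin4 and Plin5), 3 fatty acid binding proteins (Fabp3, Fabp4 and Fabp5), the fatty acid receptor Cd36 and lipoprotein lipase (Lpl). They are 10 of 50686 gene identifiers in the hip libraries and 10 of 54838 in the knee libraries, and all 10 had at least 10 counts over each pair of libraries. Poly-A RNA labelled as articular cartilage of the hip or knee joint of male mice was sequenced, with 1 library per condition and joint, to compare joints with and without Cbfb, the partner subunit of the RUNX transcription factors. The hip control was from Cbfβf/f mice with no Cre and no treatment, and the other hip library was from tamoxifen-injected Cbfβf/f;Col2α1-CreERT mice. The hip mice were 6 weeks old, with 2 months given elsewhere for the same comparison, and tamoxifen had been given from 2 weeks of age at 75 mg/kg per day for 5 days. Both knee libraries were from Cbfβf/f;Aggrecan-CreERT mice of 12 weeks, injected with oil as the control or with tamoxifen for 5 days from 6 weeks of age (8 weeks in another passage).

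As labelled, floxed Cbfb was thus carried by all groups, Cre by 3 of the 4 and tamoxifen by the Cbfb-deficient groups alone. In the hip pair loss of Cbfb, Cre and tamoxifen therefore cannot be told apart. In the knee pair, where both libraries carried Cre, loss of Cbfb and tamoxifen cannot be told apart. Another passage of the study calls the hip control wild type, which leaves its floxed Cbfb uncertain. The methods describe tamoxifen or corn oil for mice of the hip genotypes, which leaves the untreated label of the hip control uncertain. The Col2a1 and aggrecan promoters drive Cre mainly in chondrocytes, and cells in which they are silent keep Cbfb. The methods state a group size for the experiments in general without tying it to a sequenced library, so the number of animals behind each library is not known here, and the extraction notes name osteoblasts where the tissue labels give cartilage. Bone is described as part of the knee samples but not of the hip samples. Libraries held 34264456 to 38473120 counts on genes. Counts on Cbfb were 2548 (hip control), 2946 (hip, labelled Cbfb-deficient), 3796 (knee control) and 4572 (knee, labelled Cbfb-deficient), for log2 ratios of 0.41 and -0.07. After the correction for transcript length and GC content described with Cd36 these were -0.21 and 0.08 (-0.27 and -0.0038 with canonical transcripts), so that the direction turned in the hip under both versions and in the knee under the first. Whole-gene counts do not show whether an exon was removed, and the targeted gene does not separate the labels, so the treated libraries are called by their label.

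Lipid droplets are stores of triacylglycerol and cholesterol ester whose surface is coated by perilipins, which govern access of lipases to the store. Fatty acids reach cells when lipoprotein lipase, anchored on the capillary wall, splits the triacylglycerol of circulating lipoproteins. They cross the membrane with the help of CD36 and are carried in the cytoplasm by fatty acid binding proteins. Plin1 and Fabp4 are known from fat cells (Fabp4 also from capillary endothelium), Plin5 and Fabp3 from oxidative muscle and heart, and Lpl and Cd36 from fat, muscle and heart alike, whereas adult articular cartilage has no blood vessels.

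The upstream sequences of 4 of the members are shown: Plin4 and its neighbour Plin5, which differed in opposite directions in the hip, Plin1, which did so between the joints, and Fabp3, which had the largest ratio of the 10 genes. Each is the 250 bases before the annotated start, 5′ to 3′ on the strand of the gene, from RefSeq on GRCm38.p6. Capitals mark AGGTCA, the hexamer read by peroxisome proliferator-activated receptors (PPARs) with RXR, where it occurs. Plin4 is at chr17:56109783-56110032, Plin5 at chr17:56117549-56117798, Plin1 at chr7:79732777-79733026 (all on the minus strand) and Fabp3 at chr4:130308488-130308737 (plus strand).
Plin4: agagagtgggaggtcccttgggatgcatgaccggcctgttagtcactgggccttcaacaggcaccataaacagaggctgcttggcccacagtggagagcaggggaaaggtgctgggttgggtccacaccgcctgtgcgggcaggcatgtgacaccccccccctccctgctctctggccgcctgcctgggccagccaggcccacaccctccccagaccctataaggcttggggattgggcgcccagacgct
Plin5: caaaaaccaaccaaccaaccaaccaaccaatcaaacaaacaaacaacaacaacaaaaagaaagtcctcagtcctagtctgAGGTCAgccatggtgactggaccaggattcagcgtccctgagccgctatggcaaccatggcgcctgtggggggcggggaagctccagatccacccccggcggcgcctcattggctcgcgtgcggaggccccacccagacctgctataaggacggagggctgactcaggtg
Plin1: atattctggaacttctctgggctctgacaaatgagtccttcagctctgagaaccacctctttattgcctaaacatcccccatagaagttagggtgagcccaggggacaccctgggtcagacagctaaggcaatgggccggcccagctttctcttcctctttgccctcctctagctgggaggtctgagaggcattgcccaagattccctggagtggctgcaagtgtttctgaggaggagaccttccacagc
Fabp3: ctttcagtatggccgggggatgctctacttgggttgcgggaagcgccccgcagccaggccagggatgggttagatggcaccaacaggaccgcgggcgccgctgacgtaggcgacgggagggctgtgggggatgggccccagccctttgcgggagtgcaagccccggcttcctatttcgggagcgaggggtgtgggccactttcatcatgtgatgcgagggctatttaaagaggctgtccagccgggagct

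RefSeq windows of 300 bases (250 before and 50 after the start) were matched for 7 of the 10 genes, in 8 windows. Windows for Fabp4, Fabp5 and Lpl were not used here. AGGTCA was found, on either strand, in Plin5 from position -170 to -165 (the capitals above) and, in its second window, from 14 to 19. It was also found in Plin2 from -218 to -213 and in Cd36 from -228 to -223, both on the opposite strand. These letters occurred in 16.3% of all 32851 windows. The RUNX core letters TGTGGT (16.8% of all windows), the letters TATAAA (13.6%) and a direct repeat of AGGTCA with 1 base between the copies (0.0396%), each searched on both strands, were in no member's window. A match is a description of the letters and not a measured site.

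In the hip pair the genes went in both directions: transcripts of Lpl and Plin4 were higher in the library labelled Cbfb-deficient, and those of Fabp3, Plin5 and Plin1 were lower. In the knee pair Plin1 and Plin4 were higher, and no member was lower by as much as a log2 ratio of 1. A log2 ratio here is the count in the library labelled Cbfb-deficient over that in its control, scaled within the pair by TMM (a scaling that takes most genes as unchanged), with 0.5 added to each count. The 95% Clopper-Pearson interval in parentheses covers counting error only. With 1 library per condition there was no replicate error and no test, so each ratio compares 2 libraries, and a gene is "called" where its log2 ratio is 1 or more in either direction and its interval leaves out 0.

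In the hip, 2 of 10 members were called higher and 3 of 10 called lower, where 20.2% and 16.3% of all 19856 genes tested were called higher and lower. The count called lower was 1 after the length and GC correction (15.6% of all genes) and 5 under upper quartile scaling (24% of all genes). Beyond their counting interval, 5 members were higher and 5 lower, against 37.3% and 33.7% of all genes. In the knee, 2 members were called higher and 0 lower, where 9.00% and 6.81% of 21131 genes were called. Beyond the interval, 5 knee members were higher (31.9% of all genes) and 2 were lower (29.7% of all genes), and Plin3, Plin5 and Fabp3 lay within it. The median log2 ratio of the 10 genes was -0.27 in the hip and 0.08 in the knee, beside medians over all genes of 0.01 and 0.02. Of all hip calls 55.4% were higher, or 36.8% when counts were scaled by the upper quartile. The knee share was 56.9%, 46.5% under the upper quartile and 71.3% when scaled by total counts.

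**Figure D1:**
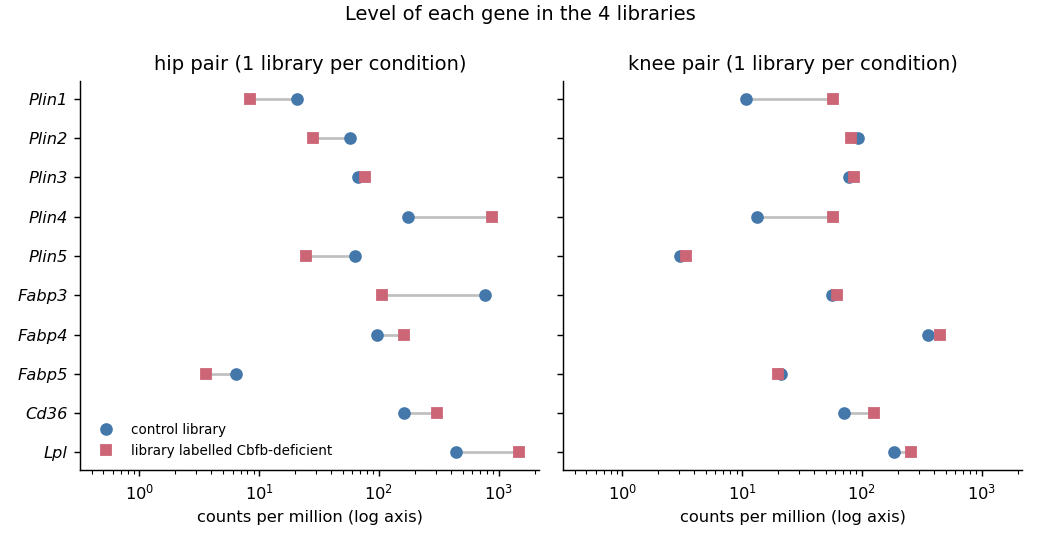
CPM (log axis) of the 10 genes in the control library (circles) and the library labelled Cbfb-deficient (squares) of the hip (left) and knee (right), each point being 1 library. Fabp3 moved from 770.2 to 105 in the hip and from 56.8 to 61.8 in the knee, while Plin4 was higher in the library labelled Cbfb-deficient of both joints.

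Lpl (ENSMUSG00000015568, chr8:69284603-69360100 of GRCm39, plus strand), the lipase of the capillary wall, had 16993 counts in the hip control and 50613 in the hip library labelled Cbfb-deficient. In the knee it had 6293 in the control and 9811 in the library labelled Cbfb-deficient. As CPM, the count scaled by the library total, Lpl went from 442 to 1464 in the hip pair, and from 184 to 257 in the knee pair. Lpl was thus higher in the library labelled Cbfb-deficient of each joint, with a log2 ratio of 1.77 (1.75 to 1.80), or 3.42-fold, in the hip and of 0.30 (0.26 to 0.35), or 1.23-fold, in the knee. The hip ratio ranged from 1.10 to 1.77 over the processings tried and was at or above 1 in each.

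Cd36 (ENSMUSG00000002944, chr5:17986432-18094067, minus strand), the membrane receptor that takes up long-chain fatty acids, had 6226 counts (162 CPM) in the hip control and 10549 (305 CPM) in the hip library labelled Cbfb-deficient. In the knee the counts were 2444 (71.3 CPM) and 4844 (127 CPM). Cd36 was higher with the Cbfb-deficient label in both joints without being called. The log2 ratio was 0.96 (0.91 to 1.00) in the hip and 0.65 (0.58 to 0.72) in the knee. The hip difference was not seen after a correction for the dependence of the ratios on transcript length and GC content (called the length and GC correction here), where it was -0.06 (-0.09 with the lengths of canonical transcripts), while the knee ratio stayed between 0.53 and 0.83 over the processings tried.

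Fabp3 (ENSMUSG00000028773, chr4:130202388-130209259, plus strand), the binding protein of heart and oxidative muscle, showed the largest difference of the 10 genes. It had 29633 counts in the hip control and 3644 in the hip library labelled Cbfb-deficient. In CPM these were 770.2 and 105. In the knee the counts were 1947 (56.8 CPM) in the control and 2361 (61.8 CPM) in the library labelled Cbfb-deficient. These levels are not compared between the joints, whose libraries differed in the share of muscle markers given below. The log2 ratio in the hip was -2.83 (-2.88 to -2.78), or 7.09-fold lower, and it ranged from -3.17 to -2.30 over the processings. The knee ratio was -0.06 (-0.15 to 0.03) and changed sign between processings, from -0.18 to 0.28.

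Reads of Fabp3 can be shared with Fabp3-ps1, a processed pseudogene on chromosome 10. The pseudogene matches the coding bases 184 to 585 of the 823-base canonical Fabp3 transcript over all 402 of its bases, 399 of them identical (99.3%) with 0 gaps. The first 120 of these are printed to show how little separates the copies, from the GENCODE transcript for Fabp3 and from chr10:86568133-86568252 of GRCm39 (minus strand) for the pseudogene, with the only base that differs in capitals.
Fabp3: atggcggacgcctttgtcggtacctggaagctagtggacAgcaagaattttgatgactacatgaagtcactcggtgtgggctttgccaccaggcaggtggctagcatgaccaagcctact
Fabp3-ps1: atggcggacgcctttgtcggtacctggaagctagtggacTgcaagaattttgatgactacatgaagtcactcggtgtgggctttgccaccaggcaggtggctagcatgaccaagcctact
Fabp3-ps1 had 647 counts in the hip control, 105 in the hip library labelled Cbfb-deficient, and 38 and 35 in the knee control and the knee library labelled Cbfb-deficient. Its log2 ratios were -2.42 (-2.74 to -2.13) in the hip and -0.46 (-1.16 to 0.24) in the knee. Fabp3 had 45.8, 34.7, 51.2 and 67.5 counts per count of the pseudogene in these libraries. Adding all pseudogene counts to Fabp3 would thus change each Fabp3 value by a few percent at most. Reads that fit both copies may be absent from both counts, so the part lost from Fabp3 is not known. Zcchc17, which overlaps Fabp3 on the opposite strand, had log2 ratios of -0.52 in the hip and -0.41 in the knee, and without a known strand setting reads from the overlap cannot be assigned.

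Fabp4 (ENSMUSG00000062515, chr3:10268785-10273737, minus strand), the binding protein of fat cells and capillary endothelium, was the most abundant knee member per length. It had 3672 counts (95.4 CPM) in the hip control and 5558 (161 CPM) in the hip library labelled Cbfb-deficient. In the knee it had 12106 counts (353 CPM) and 17159 (449 CPM). Fabp4 was higher with the Cbfb-deficient label in both joints, with log2 ratios of 0.80 (0.74 to 0.86) in the hip and 0.16 (0.13 to 0.20) in the knee. The length and GC correction left a hip ratio of 0.03, and the knee ratio ranged from 0.05 to 0.54 over the processings. Fabp5 (ENSMUSG00000027533, chr3:10077602-10081674, plus strand), the epidermal binding protein that macrophages and fat cells also make, had 246 (6.39 CPM) and 125 (3.61 CPM) counts in the hip control and in the hip library labelled Cbfb-deficient. Its knee counts were 724 (21.1 CPM) and 768 (20.1 CPM). It was lower in both joints beyond the counting interval, by log2 ratios of -0.78 (-1.10 to -0.46) and -0.25 (-0.40 to -0.11), and was not called in either. The knee ratio was -0.07 when scaled by total counts and -0.0077 with the canonical version of the length and GC correction. Fabp5 and Fabp4 lie 187110 bases apart on chromosome 3, on opposite strands.

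**Figure D2:**
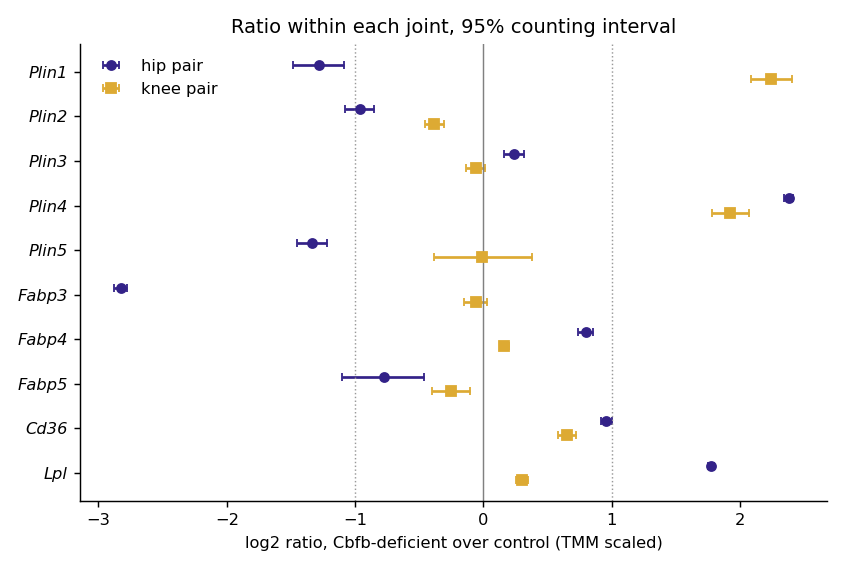
Log2 ratio of the library labelled Cbfb-deficient over the control for each gene in the hip (circles) and the knee (squares), with bars for the 95% counting interval and dotted lines at a log2 ratio of 1 in either direction. Plin4 lay beyond the upper dotted line in both joints, Plin1 beyond the lower line in the hip and the upper line in the knee, and Fabp3 and Plin5 beyond the lower line in the hip and near 0 in the knee.

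Plin1 (ENSMUSG00000030546, chr7:79369966-79382718, minus strand), the coat protein of the large droplet of fat cells that restrains lipolysis until it is phosphorylated, went opposite ways in the joints. It had 803 counts (20.9 CPM) in the hip control and 288 (8.33 CPM) in the hip library labelled Cbfb-deficient. In the knee it had 367 counts (10.7 CPM) in the control and 2197 (57.5 CPM) in the library labelled Cbfb-deficient. The log2 ratio was -1.28 (-1.48 to -1.09) in the hip, or 2.43-fold lower, and 2.24 (2.08 to 2.41) in the knee, or 4.73-fold higher. Both signs were kept under every processing tried, but after the length and GC correction the hip ratio was -0.87 and not called.

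Plin4 (ENSMUSG00000002831, chr17:56406617-56416931, minus strand), a coat protein of small new droplets, was the only member called higher in both joints. Its hip counts were 6694 (174 CPM) in the control and 30321 (877 CPM) in the library labelled Cbfb-deficient. The knee counts were 459 (13.4 CPM) and 2204 (57.7 CPM). The log2 ratios were 2.38 (2.34 to 2.42), or 5.19-fold, in the hip and 1.92 (1.78 to 2.07), or 3.79-fold, in the knee, and they ranged from 2.03 to 2.38 and from 1.63 to 2.10 over the processings. Hdgfl2, which overlaps Plin4 on the opposite strand, had ratios of 0.38 and 0.03.

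Plin5 (ENSMUSG00000011305, chr17:56418446-56424610, minus strand), which ties droplets to mitochondria in oxidative tissue, begins its span 1514 bases from that of Plin4, on the same strand. It had 2448 counts (63.6 CPM) in the hip control, 846 (24.5 CPM) in the hip library labelled Cbfb-deficient, and 104 (3.04 CPM) and 131 (3.43 CPM) in the knee libraries. The neighbours therefore differed in opposite directions in the hip, Plin5 with a log2 ratio of -1.33 (-1.45 to -1.22) and Plin4 with 2.38. In the knee Plin5 had a ratio of -0.01 (-0.39 to 0.38), and at 104 and 131 counts a difference of less than about that interval was not detectable. After the length and GC correction the hip ratio of Plin5 was -0.62 and not called.

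Plin2 and Plin3 coat droplets in most cell types, Plin2 when lipid is loaded and Plin3 moving on from the cytoplasm. Plin2 (ENSMUSG00000028494, chr4:86565912-86588459, minus strand) had 2195 counts (57.1 CPM) in the hip control and 980 (28.3 CPM) in the hip library labelled Cbfb-deficient, and 3187 (93.0 CPM) and 3093 (80.9 CPM) in the knee libraries. It was lower with the Cbfb-deficient label in both joints, by log2 ratios of -0.97 (-1.08 to -0.86) and -0.38 (-0.45 to -0.31). Plin3 (ENSMUSG00000024197, chr17:56584218-56599873, minus strand) had 2586 (67.2 CPM), 2663 (77.0 CPM), 2686 (78.4 CPM) and 3258 (85.2 CPM) counts in the hip control, the hip library labelled Cbfb-deficient, the knee control and the knee library labelled Cbfb-deficient. It was the most even of the 10 genes, with ratios of 0.24 (0.16 to 0.32) in the hip and -0.06 (-0.13 to 0.01) in the knee, and its sign depended on the scaling in both joints.

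Counts of the 10 genes summed to 71496 in the hip control (0.186% of the library) and 105587 in the hip library labelled Cbfb-deficient (0.305%). In the knee the sums were 30317 (0.0885%) and 45826 (0.120%). The make-up of the sum differed more within the hip pair than within the knee pair. Fabp3 gave 41.4% of the members' counts in the hip control and 3.45% with the Cbfb-deficient label, while Lpl went from 23.8% to 47.9% and Plin4 from 9.36% to 28.7%. In the knee Fabp4 gave 39.9% and 37.4% and Lpl 20.8% and 21.4%. Plin1 went from 1.21% to 4.79% of the members' knee counts and Plin4 from 1.51% to 4.81%.

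**Figure D3:**
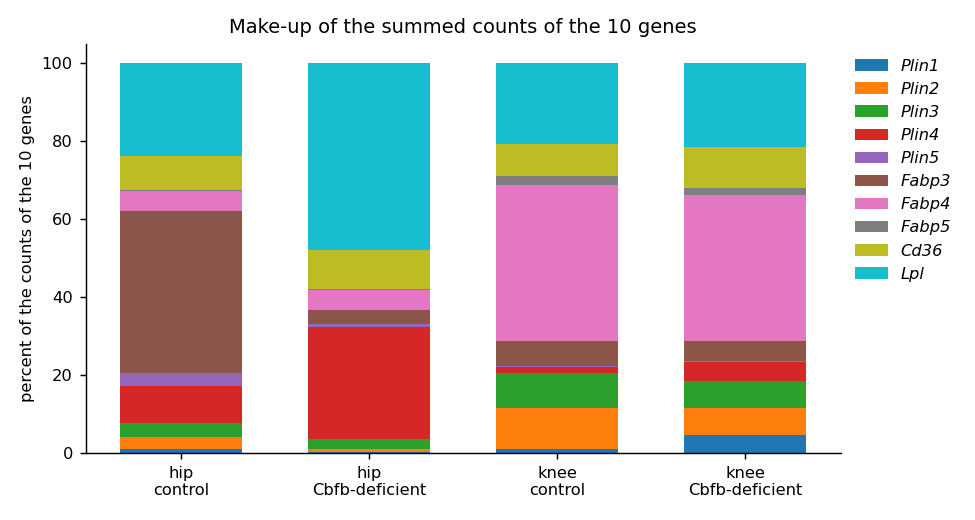
Share of each gene in the summed counts of the 10 genes, in percent, in the 4 libraries (bars, 1 library each). Fabp3 took 41.4% of the hip control bar and 3.45% of the bar for the hip library labelled Cbfb-deficient, where Lpl took 47.9% and Plin4 28.7%, and Fabp4 took 39.9% and 37.4% of the knee bars.

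Levels were compared between genes as CPM per kilobase of canonical transcript, since the annotation's merged exons take in introns of short genes such as Fabp4. In the hip control Fabp3 was highest (936), followed by Lpl (107), Fabp4 (70.2) and Cd36 (46.2), and Plin1 (6.96) and Fabp5 (6.44) were lowest. In the hip library labelled Cbfb-deficient Lpl was highest (356), with Fabp3 (128), Fabp4 (118) and Plin4 (118) next to each other and Plin1 (2.78) lowest. In the knee Fabp4 was highest in both libraries (260 in the control and 330 with the Cbfb-deficient label), and Plin5 was lowest (1.35 and 1.52). By merged exon length the first places were the same, but in the hip library labelled Cbfb-deficient Plin4 followed Lpl (110 and 120), Fabp3 was in place 5 of 10 (19.9) and Fabp5 was lowest (0.986). With 1 library per condition, the order of neighbours such as Fabp4 and Plin4 in that library rests on counting alone. The hip and knee tables hold different sets of gene identifiers, and HTSeq's summary lines are found in the hip tables alone, so levels of the joints are given side by side without a ratio.

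Some other genes shared a member's profile over the 4 libraries, measured as the Euclidean distance of log2(CPM + 1) after centring each gene on its mean, over the 13904 genes with at least 100 counts in their highest library. Nearest to Fabp3 were Kcng4, a potassium channel subunit (distance 0.413), its pseudogene Fabp3-ps1 (0.565) and Ildr1 (0.817). In the knee the log2 ratios of Kcng4 (0.59) and Ildr1 (-1.68, at 16 and 6 counts) were unlike that of Fabp3 (-0.06). Nearest to Plin5 were Galnt17 (0.216), Tmem37 (0.333) and Gdpd3 (0.360). Nearest to Plin1 were Ccdc3 (0.249), Igsf10 (0.341) and Lamc3 (0.479), all lower in the hip and higher in the knee with the Cbfb-deficient label. The counts of Ccdc3 went from 113 to 39 between the hip libraries and from 45 to 392 between the knee libraries. For Fabp4 the nearest were Gpm6b (0.013), Xrn2 (0.085) and Hectd4 (0.086). This distance includes differences between the joints' tables, whose identifiers and counting differ or are not known to match, so it is a description only. A profile over 4 libraries has few values, and many genes lie close to any flat one.

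The cell types that use these genes were followed by marker lists, given here beside the members. In bulk RNA, fewer cells of a type and less RNA per cell cannot be told apart. Markers of skeletal muscle took 21.1% of the counts in the hip control and 22.2% in the hip library labelled Cbfb-deficient, with 4 of 24 called higher (such as Ttn and Myh4), 3 called lower (Acta1, Pvalb and Casq1) and a median log2 ratio of 0.06 (6 higher, 2 lower and 0.41 with the length and GC correction, which ended the calls of Acta1 and Casq1). Markers of slow oxidative muscle took 1.49% and 0.546%, with 9 of 14 called lower, 1 called higher and a median of -1.35. Among these were myoglobin (Mb), the oxygen store of oxidative fibres, from 304543 to 67821 counts (-1.97), and the mitochondrial creatine kinase Ckmt2 (-1.51). The slow myosins Myh7 (0.47) and Myh7b (1.43) of the same list were higher, and after the length and GC correction 5 of the 14 were called lower. Col2a1, the main collagen of cartilage, went from 354 counts in the hip control to 228 with the Cbfb-deficient label, and from 87367 to 33204 between the knee libraries, so that the hip libraries held little of the transcript that defines cartilage. Chondrocyte markers took 0.0333% and 0.0160% of hip counts and 0.713% and 0.399% of knee counts, with a median of -0.89 (6 of 17 called lower, and Col9a3 and Hapln1 called higher) in the hip, where the correction moved the median to -0.57 and Hapln1 from 1.03 to -0.0045, and -1.62 (13 of 18 called lower) in the knee.

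Set against the slow oxidative muscle markers, Fabp3 had 51.7 counts per 1000 marker counts in the hip control and 19.3 with the Cbfb-deficient label, a log2 ratio of -1.42. Plin5 had 4.27 and 4.48 per 1000, a log2 ratio of 0.07. Mb alone held 53.1% of these marker counts in the hip control and 35.9% with the Cbfb-deficient label. Without it the ratios were -1.87 for Fabp3 and -0.38 for Plin5, and against the skeletal muscle list they were -2.95 and -1.46, so that the ratio of Plin5 depended on the markers chosen, while Fabp3 was lower against each list. Per 1000 skeletal muscle marker counts, Fabp3 had 3.66 in the hip control and 0.474 with the Cbfb-deficient label. In the knee it had 3.72 and 1.90. Per 1000 slow oxidative marker counts its knee values were 58.4 and 40.5. The part of muscle RNA in these results was not tested. Plin4 and Lpl were higher against either muscle list in the hip: per 1000 skeletal muscle marker counts, Plin4 went from 0.826 to 3.95 and Lpl from 2.10 to 6.59.

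Adipocyte markers took 0.218% of counts in the hip control and 0.160% in the hip library labelled Cbfb-deficient, with 5 of 20 called higher, 6 called lower and a median of -0.55, which the length and GC correction changed to 3 called lower and a median of -0.20. Car3 and Gpd1, which muscle also makes, held 91.5% of these hip control counts, and without them the share went the other way, from 0.0185% to 0.0274%. In the knee the markers took 0.0773% and 0.206%, with 13 of 19 called higher, 0 lower, all 19 above their interval and a median of 1.46 (0.0395% and 0.0860% of the counts without Car3 and Gpd1). The knee library labelled Cbfb-deficient also held more skeletal muscle RNA (1.53% and 3.24%, 12 of 24 called higher, 0 lower, median 1.01). Per 1000 adipocyte marker counts, Plin1 went from 13.9 to 27.9 in the knee (log2 ratio 1.01) and from 9.58 to 5.19 in the hip (-0.88). Without Car3 and Gpd1 these ratios were 1.30 and -1.89. Plin4 went from 17.3 to 28.0 in the knee (0.69) and from 79.8 to 547 in the hip (2.78), or 0.98 and 1.77 without these genes. Fabp4 in the knee was lower against the same markers, at 457 and 218 (-1.07), and so was Lpl, at 238 and 125 (-0.93), with -0.78 and -0.64 when Car3 and Gpd1 were left out. In the hip both were higher against these markers, Fabp4 by 1.19 and Lpl by 2.17, or by 0.19 and 1.16 without these genes. With Car3 and Gpd1 left out, Cfd alone held 2284 of 7120 and 4890 of 9475 marker counts in the hip. In the knee Cfd held 7873 of 13536 and 19052 of 32878. The shares and ratios without Car3 and Gpd1 therefore lean on 1 gene. The part of fat cell RNA in these results was not tested.

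Endothelial cells and macrophages also take up fatty acids. Endothelial markers had medians of 0.11 in the hip (1 of 16 called higher, 0 lower) and 0.27 in the knee (0 called). With the length and GC correction these medians were 0.46 and 0.09. Per 1000 endothelial marker counts, Fabp4 had 570 in the knee control and 545 in the knee library labelled Cbfb-deficient. Cd36 had 115 and 154 per 1000 there. In the hip Fabp4 had 168 and 260 per 1000, and Cd36 had 285 and 493. Macrophage markers had medians of -0.55 in the hip (5 of 16 called lower and 2 higher, or 3 and 0 with the length and GC correction) and -0.10 in the knee (0 called). Osteoblast markers had medians of -0.61 in the hip and -0.39 in the knee, and their share of counts went from 0.0949% to 0.0278% and from 1.43% to 0.804%. Erythroid markers had medians of -0.53 and -0.54, or -0.85 and -0.32 with the length and GC correction. Their share went from 0.593% to 0.227% in the hip and from 10.1% to 5.03% in the knee. Neutrophil markers had medians of 0.26 (4 of 14 called higher) and -0.18, or 0.50 and 0.0093 with the correction. The part of these shifts in the members' ratios was not tested.

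The other genes of the pathway were taken as 8 lists, which share some genes with the marker lists. Cidea, Cidec, Lipe, Adrb3, Aqp7, Pck1, Gpd1, Thrsp and Pparg are also in the adipocyte list, and Gpihbp1 is also in the endothelial list. A call of any of these is counted in both lists and is not a separate observation. With the length and GC correction the hip calls higher went from 3 to 1 for fatty acid transport, from 3 to 2 for lipolysis and for triacylglycerol synthesis, and from 1 to 0 for lipogenesis, and the median of the lipoprotein lipase control genes turned from -0.06 to 0.26. Of 24 genes of mitochondrial fatty acid oxidation, 2 were called higher and 8 lower in the hip (median -0.72), and 3 higher and 0 lower in the knee (median 0.17). In the hip Acads, which acts on short acyl chains, went from 6261 to 1696 counts (-1.69), and the thiolase Acaa2 from 16633 to 5625 (-1.37). Pdk4, the kinase that turns off pyruvate dehydrogenase when fat is burned, went from 10462 to 29927 (1.71) in the hip. Cpt1b, which admits fatty acids to muscle mitochondria, went from 59 to 191 counts in the hip (1.88). In the knee Cpt1b went from 0 to 11 counts, 2.90-fold higher with the control set at a floor of 3 counts. The lower end of its knee counting interval was a log2 ratio of 0.99. Beyond their intervals 18 of the 24 oxidation genes were lower and 4 higher in the hip, where 33.7% and 37.3% of all genes were. After the length and GC correction 3 of the 24 were called lower, 1 of them (Acaa2, -1.20) among the 8 above, and Acads was at -0.98.

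Among 13 hip genes of fatty acid transport, 3 were called higher and 0 lower (median 0.01). Among 14 knee genes, 2 were called higher and 2 lower (median -0.10), or 1, 2 and -0.20 with the length and GC correction. The acyl-CoA synthetases Acsl3 (128 to 897 counts) and Acsl4 (376 to 865, 1.40) were called higher in the hip, and after the length and GC correction Acsl4 was at 0.37 and not called. The transporter Slc27a6 (112 to 29, -2.27) and the binding protein Fabp7 (145 to 44, -2.05) were lower in the knee. Genes that control lipoprotein lipase gave 1 call higher and 2 lower of 13 in the hip and 0 higher and 1 lower of 14 in the knee (medians -0.06 and -0.15). Of these, the lipoprotein receptor Vldlr had ratios of 0.42 in the hip, which became -0.46 with the correction, and 0.93 in the knee. The hepatic lipase Lipc went from 310 to 188 counts in the knee (-1.06, and -0.93 with the correction). In the hip, where Lpl was 3.42-fold higher, the only call higher in this list was the endothelial lipase Lipg, at 2 and 9 counts.

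Genes of droplet coat and growth other than the perilipins had 1 call higher and 2 lower of 13 in the hip, and 2 higher and 0 lower of 15 in the knee (medians -0.35 and 0.06). Fitm1, which helps droplets form in muscle, went from 10669 to 3987 counts in the hip (-1.22). Cidea and Cidec, which fuse droplets in fat cells, went from 31 to 120 (1.60) and from 590 to 1968 (1.40) in the knee, beside Plin1 at 2.24. Cidea was lower in the hip (151 to 64, -1.03), as Plin1 was, and Cidec was not (637 to 934, 0.75). Rab18, a small GTPase of the droplet surface, was called higher in the hip (1.12). The length and GC correction ended all 3 hip calls of this list, with Rab18 at -0.09, Fitm1 at -0.48 and Cidea at -0.46, and brought Cidec to 1.17.

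Lipolysis genes gave 3 calls higher and 2 lower of 14 in the hip (median -0.07), or 2, 1 and -0.25 with the correction. In the knee 3 were called higher and 0 lower (median 0.57). Mgll, the monoacylglycerol lipase, went from 4613 to 1374 in the hip (-1.55). The glycerol channel Aqp7 was lower in the hip (321 to 116, -1.27) and higher in the knee (44 to 222, 1.98), the same pair of directions as Plin1, with a hip ratio of -0.99 after the correction. Pnpla3 was higher in both (2.19 and 2.49), as Plin4 was. Triacylglycerol synthesis genes gave 3 calls higher and 2 lower of 17 in the hip (median -0.35, or 2, 3 and -0.06 with the correction) and 5 higher and 0 lower of 18 in the knee (median 0.31), led in the knee by Gpam, the first acyltransferase of the pathway (92 to 831, 2.83). Pck1 was higher in both joints (1.67 and 1.49), and Gpd1 in the knee (1.47) but not in the hip (-0.56).

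Lipogenesis genes had 1 call higher and 3 lower of 15 in the hip (median -0.07) and 3 higher and 0 lower of 15 in the knee (median 0.13). With the correction the medians were -0.29 and 0.14, and the knee calls were 2 higher and 2 lower. Scd1, the desaturase that makes oleate, went from 6249 to 741 in the hip (-2.88) and from 6227 to 21747 in the knee (1.46), again with the directions of Plin1. Of 19 PPAR genes and partners, 5 were called higher and 2 lower in the hip (median -0.16). With the correction 2 were called higher and 1 lower there (median 0.22). In the knee 3 were called higher and 0 lower (median 0.34, or 0.15 with the correction). Ppara, the receptor that drives fatty acid oxidation genes, went from 332 to 678 counts in the hip (1.23) and from 5 to 61 in the knee (3.14). Pparg, the receptor of fat cells, had ratios of -0.06 and 0.23 and Ppard of -0.26 and 0.23. The coactivator Ppargc1a was called higher in both (1.74 and 1.28), but with the correction it was at 0.61 in the hip and not called.

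**Figure D4:**
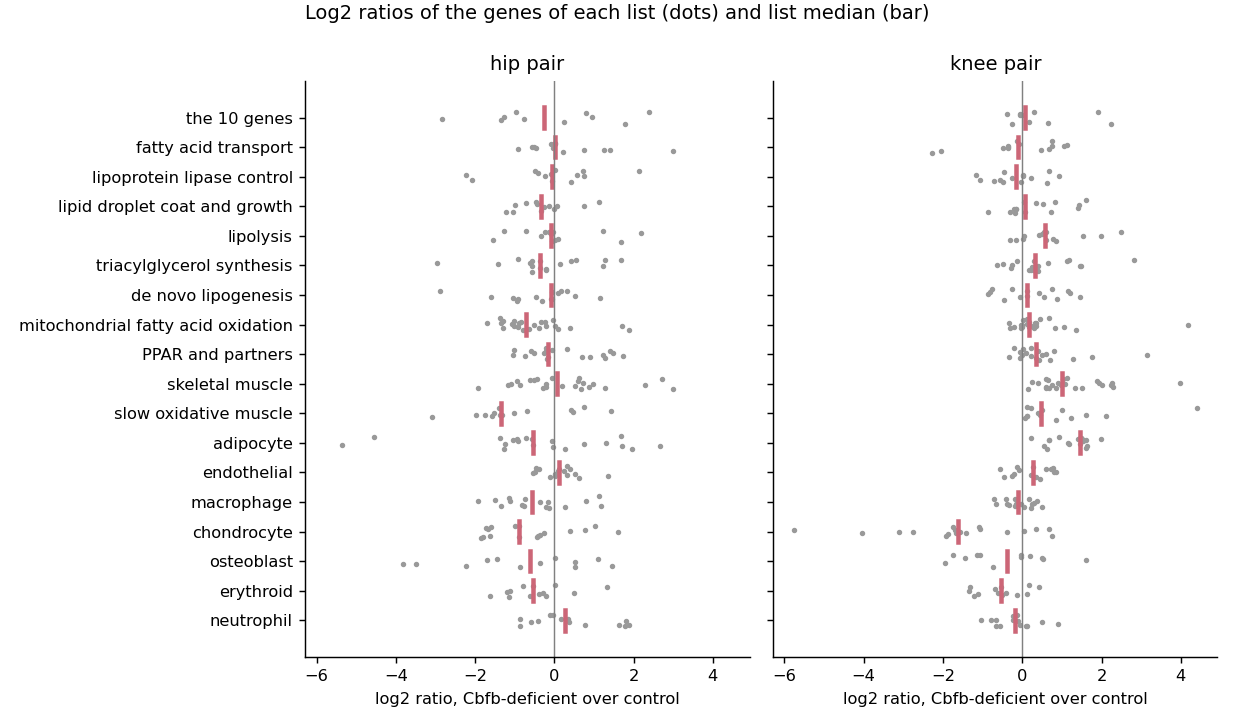
Log2 ratios of the genes of each list (dots) with the list median (vertical bar) in the hip (left) and knee (right) pairs, for the 10 genes, 8 pathway lists and 9 cell type lists, with 1 library per condition. Slow oxidative muscle lay at a median of -1.35 in the hip and 0.47 in the knee, fat cell markers at -0.55 and 1.46, and the 10 genes at -0.27 and 0.08.

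**Figure D5:**
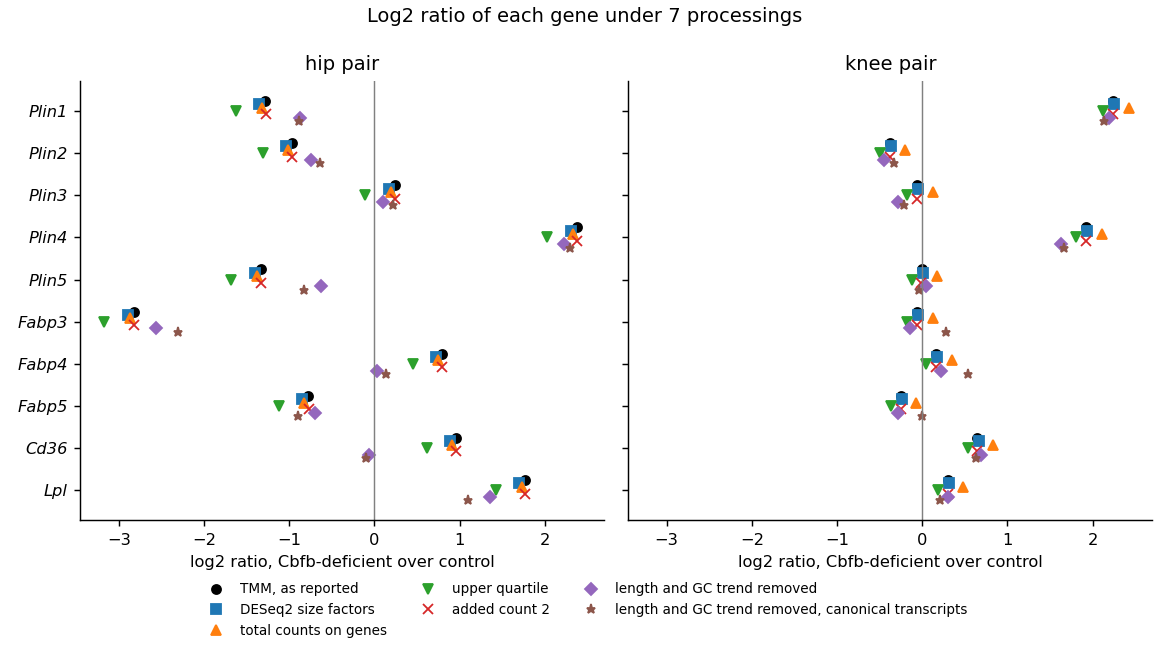
Log2 ratio of each gene in the hip (left) and knee (right) under the 7 processings named in the key. Plin1, Plin4 and Lpl kept their sign in both joints, whereas Cd36 in the hip reached -0.09 and Plin3 had values on both sides of 0 in each joint.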

How the data were processed

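Poly-A RNA labelled as hip or knee articular cartilage was sequenced in 4 libraries, 1 per condition and joint. The authors deposited whole-number read counts per Ensembl gene, without normalization. Submitters' processing notes name FastQC 0.11.3, STAR 2.0 and mm10, whereas the study's methods give GRCm39 for the alignment. HTSeq is named for the hip counts, and the knee counter and the strand setting are not given in the sources used here. The closing summary lines of the hip tables (25.8% and 24.6% of listed reads) were left out. Library totals of 34264456 to 38473120 make a floor of 3 counts equal to 0.0780 to 0.0876 CPM. Symbols, lengths and positions came from the GENCODE annotation of GRCm39, which matched 91.8% of hip and 92.6% of knee identifiers, and promoter windows from RefSeq on GRCm38.p6, a different build.

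Counts were scaled within each pair by TMM (edgeR 4.0.16 in R 4.3.3), and genes with at least 10 counts over the pair were kept. Other steps used Python 3.11.15, numpy 2.4.6, pandas 2.3.3, scipy 1.17.1 and matplotlib 3.10.9, and were checked on simulated counts. Named were all 10 members, Cbfb, near copies, up to 4 genes of each of the 8 pathway lists by size of the ratio where the higher library held 100 counts or more (with the 3 PPARs), the 2 markers with most counts of each of the 9 cell type lists, and the 3 genes nearest in profile to 4 of the members. From these lists only some are described, and Gpd1 as a marker and the muscle and chondrocyte markers outside this rule were named after their values were seen. The members and lists were chosen with earlier results of these data known. Alternatives were DESeq2 1.42.0 size factors, total counts, the upper quartile, an added count of 2, other count filters, a call at a log2 ratio of 0.5, and the length and GC correction, which subtracts the median ratio of genes of like transcript length, then of like GC content (20 bins each, 2 rounds). The use of canonical transcripts for that correction and for levels, the marker sums without Car3 and Gpd1 or Mb, and the corrected list calls were chosen after seeing the data, the first because merged exons of the annotation span introns.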

Additional observations from a re-analysis of the deposited data

Results flagged for a closer look

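Plin1 had a log2 ratio of -1.28 in the hip pair (803 and 288 counts) and of 2.24 in the knee pair (367 and 2197 counts), so that the library labelled Cbfb-deficient differed in opposite directions in the joints. After the length and GC correction the ratios were -0.87, which is not called, and 2.19. The difference between the joints was not tested, since each condition has 1 library, and the joints also differ in age, in the Cre driver, in how the control was made and in the tissue sampled (bone is described as part of the knee samples only, and skeletal muscle markers took 21.1% of counts in the hip control and 1.53% in the knee control), which cannot be told apart from the joint. Per 1000 adipocyte marker counts the ratio of Plin1 was -0.88 in the hip and 1.01 in the knee, and -1.89 and 1.30 with Car3 and Gpd1, which muscle also makes, left out of the markers.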

How the results depend on the processing

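No paired analysis was made, since each condition and joint had 1 library, which also left no replicate to leave out. A fit with the joint as the block was not made, since it would take joints with different Cre lines, ages and controls as replicates. Of the log2 ratios of the 10 genes, 8 in the hip and 7 in the knee kept their sign under every processing tried. The exceptions were Cd36 (-0.09 to 0.96) and Plin3 (-0.11 to 0.24) in the hip, and Fabp3 (-0.18 to 0.28), Plin3 (-0.28 to 0.12) and Plin5 (-0.12 to 0.17) in the knee. With longest transcripts, the length and GC correction left 3 hip members higher beyond their interval in place of 5 (34.0% of all genes). It left 4 knee members lower in place of 2 (29.9% of all genes). With longest or with canonical transcripts (the latter chosen after seeing the data), 1 hip member was called lower in place of 3, namely Fabp3. Of all genes 15.6% and 15.3% were called lower. A call at a log2 ratio of 0.5 gave 4 hip members higher and 5 lower, where 30.0% and 25.4% of all genes were. Upper quartile scaling gave 5 hip members called lower, 4 knee members lower and a knee median of -0.038 in place of 0.08, and total counts left 1 knee member lower. Upper quartile scaling put the median of all hip genes at -0.33, and total counts put that of all knee genes at 0.20. Relative to that shift Plin3 in the hip was 0.23 above all genes, with a log2 ratio of -0.11. The causes were not tested. Of the recomputed counts of members, 51 stayed within 1.5 times the reported value and 9 did not. Low counts limit Plin5 in the knee and Fabp5 in the hip most.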
